A study of Mus musculus with 27 samples.

Results

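Ba/F3 cells, a mouse pro-B cell line that needs interleukin 3 (IL3) to grow, were profiled by polyA RNA sequencing, and 10 genes for the import of glucose, phosphate and amino acids and the transport of lactate were followed through every group. The genes were taken by symbol from all 27 count files, and they are 10 of the 24000 genes counted. They are Slc2a1 and Slc2a3 (the glucose carriers GLUT1 and GLUT3), Slc20a1 and Slc20a2 (the phosphate carriers PiT-1 and PiT-2), Slc7a5 and Slc3a2 (the light and the heavy chain of LAT1), Slc7a1, Slc1a5, Slc38a2 and Slc16a1 (MCT1). Wild-type cells went without IL3 for 6 h (n = 5), or went 6 h without it and then received 10 ng/mL IL3 for 30 min (n = 5). All other cells carried a lentiviral short hairpin, had been selected with puromycin, and went through the same deprivation and 30 min of IL3: a no-target hairpin (n = 5) and hairpins against STAT5A, STAT5B, LSD1 (gene Kdm1a) and HDAC3 (n = 3 each). The STAT5 proteins carry the signal of the IL3 receptor to genes, LSD1 is a histone demethylase and HDAC3 a histone deacetylase. All cells were kept in 1 ng/mL IL3 before the experiment. The libraries of a group are biological replicates per the labels, which do not say whether hairpin cells were pools or clones. The p-values thus set a difference against the spread between these libraries, and the main fit shared its estimate of that spread over all 7 groups.

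These carriers set how fast a growing blood cell can take up fuel and building blocks. Glucose enters through GLUT1 and GLUT3 down its gradient, phosphate enters with sodium through PiT-1 and PiT-2, and LAT1 brings in leucine and other large neutral amino acids in exchange for glutamine. Growth factors such as IL3 are known to keep such carriers at the cell surface, and cells deprived of them take up less glucose and amino acid even when both are plentiful. The transcription factors MYC and ATF4 are known to act on several of these genes, MYC at sites with the letters CACGTG and ATF4 when amino acids are short.

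Because MYC sites of this kind can be read directly from the sequence, the bases upstream of the start site were searched for 6 motifs on both strands. RefSeq (GRCm38.p6) gave start sites for 6 of the 10 genes, with 8 windows of 250 bases. The motifs were CACGTG, held by 6.02% of all 32851 windows of the same length, the GC box GGGCGG (32.7%), TTCNNNGAA of the type bound by STAT5 (7.02%), TGANTCA of the type bound by AP-1 (6.75%), TGACGTCA (1.55%) and TGATGNAA of the type bound by ATF4 with C/EBP (3.45%). The main window of Slc20a1 held CACGTG at 2 places, from 175 to 170 and from 22 to 17 bases before the start, and GGGCGG at 2 others. Slc16a1 held CACGTG once, from 200 to 195 bases before its start. Slc2a1 held no CACGTG and 2 GC boxes, read here as CCGCCC. Slc7a1 held TGACTCA from 123 to 117 bases before its main start, and its second window, at a start inside the gene, held TTCAAAGAA. These 4 genes are shown because IL3 or a motif singles them out below; capitals mark every motif match, the strand is that of the gene, and each sequence ends before the first base that RefSeq or GENCODE counts as transcribed, which leaves out the second GC box of Slc2a1. A match is a description of the letters and shows no binding.
Slc20a1, chr2:129198523-129198763, plus strand: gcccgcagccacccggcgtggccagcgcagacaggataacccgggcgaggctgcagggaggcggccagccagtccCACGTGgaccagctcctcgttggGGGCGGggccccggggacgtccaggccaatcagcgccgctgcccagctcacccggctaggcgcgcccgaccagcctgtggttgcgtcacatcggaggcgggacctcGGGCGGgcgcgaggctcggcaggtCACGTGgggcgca
Slc2a1, chr4:119108495-119108710, plus strand: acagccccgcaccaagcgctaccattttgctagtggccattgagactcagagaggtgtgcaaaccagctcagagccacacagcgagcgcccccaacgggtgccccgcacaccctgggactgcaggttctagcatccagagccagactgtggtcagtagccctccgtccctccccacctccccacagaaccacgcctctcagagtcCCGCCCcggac
Slc16a1, chr3:104638414-104638663, plus strand: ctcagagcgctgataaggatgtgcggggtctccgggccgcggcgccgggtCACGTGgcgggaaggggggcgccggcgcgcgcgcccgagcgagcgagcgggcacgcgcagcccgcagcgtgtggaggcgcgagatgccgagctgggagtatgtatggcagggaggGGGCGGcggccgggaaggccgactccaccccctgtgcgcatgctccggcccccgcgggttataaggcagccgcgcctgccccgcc
Slc7a1, chr5:148399905-148400154, minus strand: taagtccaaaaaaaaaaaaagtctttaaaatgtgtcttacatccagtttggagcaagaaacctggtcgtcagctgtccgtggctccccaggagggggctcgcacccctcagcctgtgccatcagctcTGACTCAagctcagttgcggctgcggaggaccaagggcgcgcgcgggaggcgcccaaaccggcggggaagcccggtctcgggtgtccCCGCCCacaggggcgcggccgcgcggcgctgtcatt

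Libraries held 5.48 to 33.8 M reads counted in genes, and each of the 10 genes had between 133 and 11528 reads in every library. Levels are given as counts per M (CPM), scaled between libraries by the trimmed mean of M values (TMM). All 10 genes passed the filter on low counts and stood among the 12073 genes tested with edgeR's quasi-likelihood test, with Benjamini-Hochberg adjustment over all of them and a threshold of 0.05. Each hairpin lowered its target (log2 fold change -1.48 for Stat5a, -1.81 for Stat5b, -0.91 for Kdm1a and -1.18 for Hdac3). In 5 libraries (HDAC3 knockdown replicates 1 and 2, LSD1 knockdown replicate 1, no-target replicates 1 and 3) 14.2 to 25.1% of reads lay outside genes; the range in the other 22 was 8.82 to 12.1%. A further 4 had few multi-mapped reads (replicate 2 of both wild-type groups and of the STAT5B knockdown, STAT5A knockdown replicate 3), and the 18 left are called the common class. The receptor genes Il3ra, Csf2rb and Csf2rb2 and Ptprc were present in every library (summed level 3438 to 14974 CPM). Of 10 markers of pro-B or B cells only Cd79a and Cd79b had a median above 1 CPM (summed level 42.7 to 120 CPM), and the defining genes Pax5 and Ebf1 had a median of 0. Erythroid markers were present at 3 of 4 (149 to 769 CPM, with Gata1 at 110 to 452), myeloid markers at 2 of 6 (5.62 to 386) and mast cell markers at 2 of 5 (3.94 to 417).

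The wild-type comparison asked which carriers answer 30 min of IL3. Slc20a1 and Slc2a1 rose, the other 8 genes did not pass the test, and no carrier fell. In bulk RNA, a change in the share of cells that express a gene and a change in RNA per cell cannot be told apart. With 2 of 10 genes called, all higher, the background was 3.00% of all genes called higher and 3.82% called in either direction.

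Slc20a1, the sodium-dependent importer of phosphate, stood in deprived replicates 1 to 5 at 29.8, 20.3, 25.4, 20.2 and 19.5 CPM. With IL3 it stood at 86.7, 126, 128, 134 and 130.2 CPM. The groups were far apart, and even the lowest stimulated library lay above every deprived one. The mean rose from 23.0 ± 4.44 to 121 ± 19.4 CPM (SD, n = 5 each; log2 fold change 2.39, SE 0.18, adjusted p = 1.78e-09). Within equal replicate numbers the rise was 2.91-fold in replicate 1 and 5.03- to 6.66-fold in the other 4. Slc20a1 lies on chromosome 2 (GRCm38/mm10, 129198764 to 129211616, plus strand). It was the only one of the 10 genes whose groups did not overlap, a pattern seen in 11.2% of all genes.

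Slc2a1 (chromosome 4, 119108711 to 119137983, plus strand), the GLUT1 gene, stood in deprived cells at 30.2, 65.8, 25.5, 30.2 and 26.5 CPM. With IL3 it stood at 49.6, 96.6, 80.9, 82.7 and 82.3 CPM. Deprived replicate 2 was high and stimulated replicate 1 low, so the groups overlapped, but each stimulated library lay above the deprived library of its number, by 1.47- to 3.17-fold. The mean rose from 35.7 ± 17.0 to 78.4 ± 17.3 CPM (SD, n = 5 each; log2 fold change 1.14, SE 0.21, adjusted p = 0.00160). The change was 1.49 without deprived replicate 2, and it passed in each of the 19 alternatives tried, with adjusted p between 2.72e-06 and 0.0198.

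Equal replicate numbers marked libraries that deviated together in wild type, so a further fit of the wild-type libraries alone took that number as a block. It left out the hairpin libraries too, while values given without the block are from the fit of all 27. With the wild-type libraries fitted alone and no block, Slc7a1 already passed (adjusted p = 0.0172). Slc2a3 (adjusted p = 0.0906) and Slc38a2 (adjusted p = 0.216) did not. That fit called 812 of the 12073 genes higher and 360 lower, beside 362 and 99 in the fit of all 27. In the fit with the block 5 of the 10 carriers rose, against 12.6% of all genes called higher and 8.66% called lower. Slc2a3, the glucose carrier with the higher affinity, joined Slc2a1 there. It stood at 92.0, 93.6, 46.7, 62.9 and 46.0 CPM without IL3 and at 109, 134, 88.3, 104 and 89.2 CPM with it, and the ranges overlapped. The change was 0.62 without the block (SE 0.30, adjusted p = 0.353) and 0.67 with it (SE 0.10, adjusted p = 0.00580), with a rise in 5 of 5 pairs by 1.18- to 1.94-fold. Slc7a1, the importer of arginine and lysine, stood at 36.8, 27.2, 27.5, 27.2 and 25.8 CPM and then at 40.3, 36.3, 40.6, 41.0 and 40.4 CPM. It was the weakest of the 10 per length, yet the stimulated values were the most even of any carrier. Its change was 0.46 without the block (SE 0.24, adjusted p = 0.409) and 0.47 with it (SE 0.09, adjusted p = 0.0115), higher in 5 of 5 pairs. Slc38a2, the SNAT2 carrier of alanine, glutamine and other small neutral amino acids, stood at 209, 189, 129, 178 and 146 CPM and then at 233, 225, 187, 185 and 194 CPM. Its change was 0.27 without the block (adjusted p = 0.629) and 0.28 with it (SE 0.08, adjusted p = 0.0354), higher in 5 of 5 pairs by 1.04- to 1.44-fold.

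**Figure D1:**
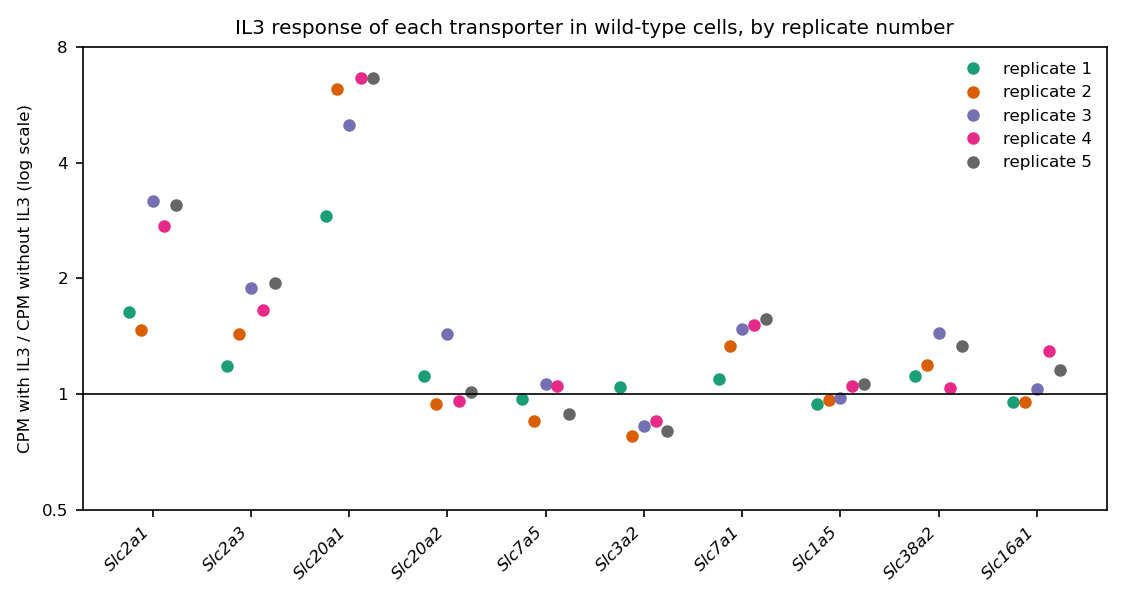
Ratio of the level with IL3 to the level without it (CPM over CPM, log axis) for each carrier in wild-type cells, 1 point per replicate number; the line marks no difference. Slc20a1 lies between 2.91 and 6.66 and Slc2a1 between 1.47 and 3.17, while both LAT1 chains, Slc20a2, Slc1a5 and Slc16a1 lie on both sides of 1.

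The remaining 5 carriers did not pass in either fit. Slc3a2, the heavy chain that carries LAT1 to the membrane, stood at 327, 330.1, 321, 322 and 355 CPM without IL3 and at 341, 257, 265, 274 and 285 CPM with it. It was lower with IL3 in 4 of 5 pairs, and replicate 1 went the other way (log2 fold change -0.22, SE 0.20, adjusted p = 0.684, and adjusted p = 0.0638 with the block). Slc7a5, its light chain, ranged from 183 to 279.8 CPM without IL3 and from 191 to 271 CPM with it (-0.06, SE 0.25, adjusted p = 0.945). Slc1a5, the ASCT2 exchanger of glutamine, had almost the same mean in both groups, 79.1 ± 3.21 and 79.1 ± 6.20 CPM (-0.00, SE 0.15, adjusted p = 0.999). Slc16a1, which moves lactate with a proton, stood at 104 ± 12.4 and 112 ± 12.2 CPM (0.10, SE 0.12, adjusted p = 0.796). Slc20a2, the paralogue of Slc20a1, stood at 28.1 ± 6.17 and 29.9 ± 4.30 CPM (0.09, SE 0.20, adjusted p = 0.889). Over the 10 carriers the median log2 fold change was 0.18, beside -0.02 over all genes tested.

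**Figure D2:**
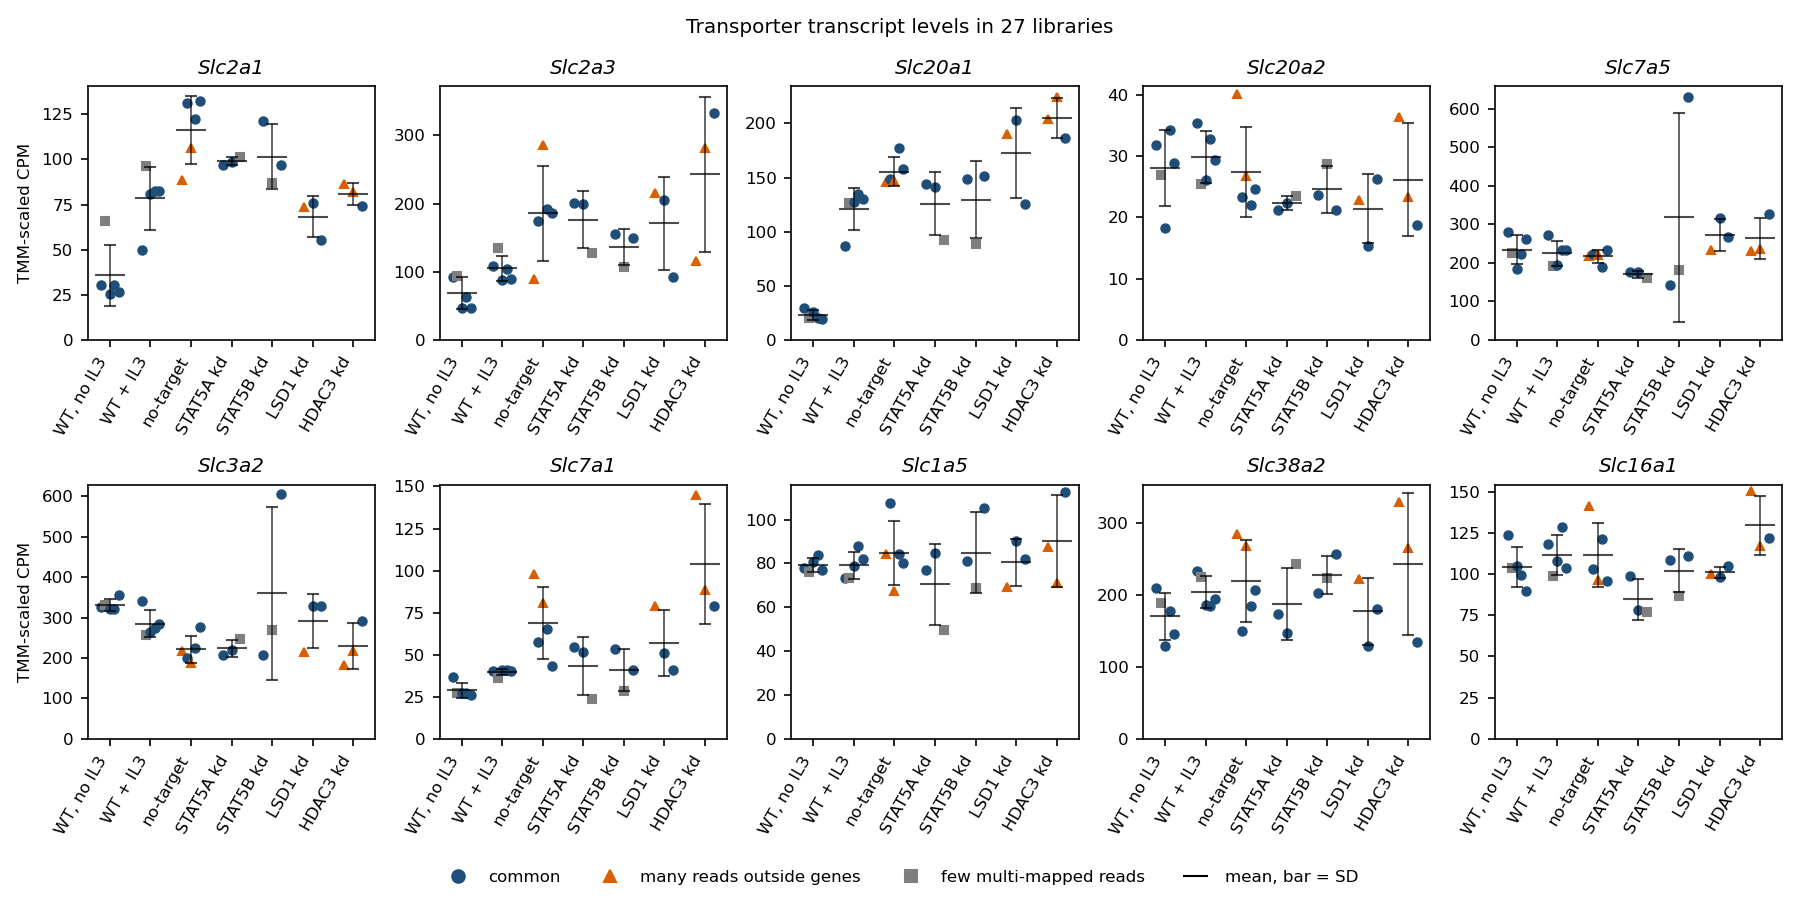
Level of each carrier (TMM-scaled CPM, linear axes from 0, scaled per gene) in every library of the 7 groups, 1 point per library; lines give the mean and SD of a group, and point shapes the library class. The deprived wild-type libraries stand apart from all others for Slc20a1 (19.5 to 29.8 against 86.7 to 224 CPM), and 1 STAT5B knockdown library stands apart for Slc7a5 and Slc3a2.

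Levels of different genes were compared per kb of exon sequence (union of all GENCODE exons). In stimulated wild-type cells Slc3a2 was the highest (80.6 ± 9.49 CPM per kb, SD, n = 5), followed by Slc7a5 (60.5 ± 8.89), whose range touched it. These 2 stood clear of all others. Slc16a1 (25.2), Slc38a2 (23.2), Slc2a1 (22.4), Slc20a1 (21.7) and Slc1a5 (19.0) followed, and then Slc2a3 (14.5 ± 2.59), and in that stretch the ranges of neighbours overlapped. Slc20a2 (4.81 ± 0.692) and Slc7a1 (3.45 ± 0.168) were the lowest, with ranges apart from Slc2a3 and from each other. In deprived cells Slc20a1 had rank 9 of 10 at 4.13 ± 0.796 CPM per kb, beside 4.52 ± 0.992 for Slc20a2. Dividing by the longest transcript instead moved Slc20a1 from rank 6 to rank 3 with IL3, so its place among the middle genes depends on the length used.

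The balance within the phosphate pair moved with IL3. Per length, Slc20a1 made up 48.0 ± 8.30% of both PiT transcripts in deprived cells (39.6 to 60.8%) and 81.5 ± 4.78% after 30 min of IL3 (73.1 to 84.6%). In the 5 hairpin groups, all stimulated, the mean share lay between 84.5% (STAT5B knockdown) and 89.8% (HDAC3 knockdown). For the glucose pair the ranges overlapped: Slc2a1 made up 51.4 ± 6.99% of both GLUT transcripts without IL3 (40.4 to 59.2%) and 60.3 ± 7.04% with it (48.5 to 65.6%). The lowest mean shares of Slc2a1 were in the LSD1 (46.7 ± 7.61%) and HDAC3 (43.3 ± 15.4%) knockdowns, and the no-target share was 57.6 ± 8.73%. These shares were described and not tested.

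As a background for the knockdowns, cells with the no-target hairpin were compared with stimulated wild-type cells. No carrier passed by edgeR or by DESeq2, although 4 of 10 had an unadjusted p under 0.05; 0% of all genes were called by edgeR (2042 at an unadjusted p under 0.05). Slc20a1 and Slc7a1 were higher in every no-target library than in any stimulated wild-type one, a pattern of no overlap seen in 5.35% of all genes. Slc7a1 stood at 98.0, 57.4, 80.8, 65.2 and 43.0 CPM with the no-target hairpin, against 36.3 to 41.0 in wild type (log2 fold change 0.79, SE 0.24, adjusted p = 0.200). Replicates 1 and 3, the highest, are libraries with many reads outside genes, and without all 5 such libraries the value was 0.47 (adjusted p = 0.560). Slc20a1 stood at 145, 149, 147, 177 and 158 CPM (0.36, SE 0.17, adjusted p = 0.286). Both glucose carriers had positive values too. Slc2a3 stood at 89.7, 174, 286, 192 and 186 CPM (0.82, SE 0.30, adjusted p = 0.225), and Slc2a1 at 88.5, 131, 107, 123 and 133 CPM (0.57, SE 0.21, adjusted p = 0.225). Slc3a2 had the most negative value (-0.36, SE 0.20, adjusted p = 0.349). Within the common class (3 no-target and 4 wild-type libraries) the values were 0.91 for Slc2a3, 0.80 for Slc2a1, 0.44 for Slc7a1 and 0.43 for Slc20a1, none past the test. Transduction, the hairpin and selection were applied together and cannot be told apart.

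**Figure D3:**
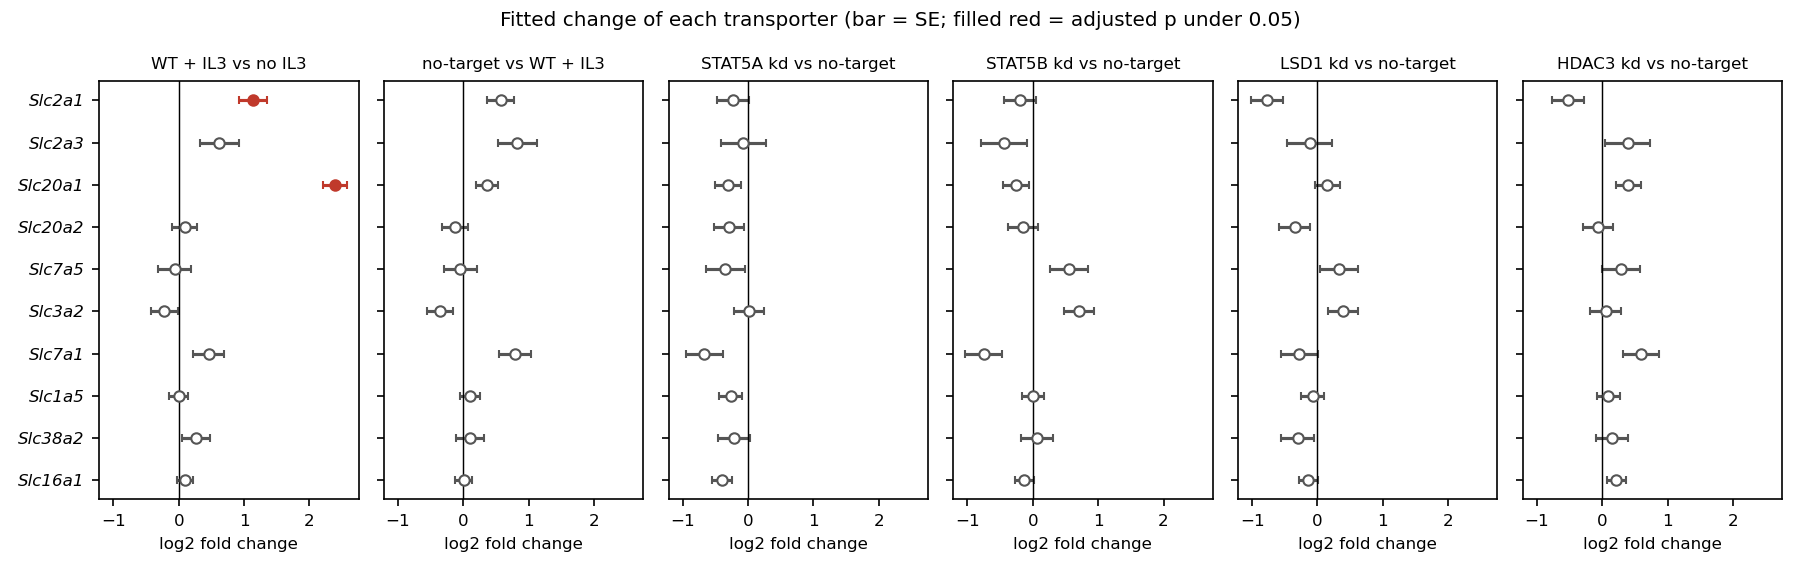
Log2 fold change of each carrier in 6 comparisons (IL3, no-target hairpin and the 4 knockdowns), with bars of 1 SE; filled points passed the test at an adjusted p under 0.05. Slc20a1 and Slc2a1 in the IL3 comparison are the only filled points, and the values in the other 5 comparisons lie between -0.77 and 0.82.

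With STAT5A or STAT5B lowered, no carrier passed by edgeR or by DESeq2, in comparisons where 0.0663% (STAT5A) and 0.340% (STAT5B) of all genes were called. An unadjusted p under 0.05 was found for 2 of 10 carriers in each, beside 1016 and 1925 of the 12073 genes. Both knockdowns were compared with the same 5 no-target libraries, so their values share those controls. Slc20a1, the carrier with the strongest IL3 response, stood at 144, 141 and 92.1 CPM with STAT5A lowered and at 148, 88.2 and 152 CPM with STAT5B lowered, against 145 to 177 CPM. The low library in each group is one with few multi-mapped reads. The log2 fold change was -0.30 (SE 0.20, adjusted p = 0.602) and -0.26 (SE 0.20, adjusted p = 0.484). All 6 libraries lay well above the 19.5 to 29.8 CPM of deprived wild-type cells. No hairpin cells were sampled without IL3, so their own response to IL3 cannot be read from these levels. Slc2a1 stood at 96.9, 98.6 and 101 CPM with STAT5A lowered and at 121, 86.7 and 96.8 CPM with STAT5B lowered, inside or just under the control range (-0.23, SE 0.24, and -0.19, SE 0.24).

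In the STAT5A knockdown 9 of 10 carriers had negative values, with a median log2 fold change of -0.28 beside -0.00 over all genes. Slc7a5 (175, 177 and 159.6 CPM against 190.1 to 233) and Slc20a1 lay below every control, a pattern of no overlap held by 4.80% of all genes (-0.35, SE 0.29, adjusted p = 0.675 for Slc7a5). Slc16a1 stood at 99.0, 78.2 and 76.8 CPM against 95.6 to 142 (-0.40, SE 0.15, adjusted p = 0.544), and Slc7a1 at 54.7, 51.6 and 23.6 CPM against 43.0 to 98.0 (-0.67, SE 0.28, adjusted p = 0.566). This Slc7a1 value was -0.35 when the 5 libraries rich in reads outside genes were left out and -0.05 within the common class. In the STAT5B knockdown Slc7a1 stood at 53.4, 28.1 and 41.0 CPM (-0.75, SE 0.28, adjusted p = 0.250). Without the 5 libraries its value was -0.44, and within the common class -0.22, where Slc2a3 (-0.27) and Slc2a1 (-0.23) were lower. With all libraries, 6 of 10 STAT5B values were negative, and the median was -0.14 beside -0.01 over all genes. No carrier was free of overlap with the controls (5.72% of all genes were).

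STAT5B knockdown replicate 3 stood apart at both chains of LAT1. Slc7a5 stood there at 630.5 CPM, against 142 and 182 CPM in replicates 1 and 2 and at most 326 CPM in any other library of the study. Slc3a2 stood at 606 CPM, against 207 and 269 CPM and at most 355 CPM elsewhere. The group values were 0.55 for Slc7a5 (SE 0.29, adjusted p = 0.340) and 0.70 for Slc3a2 (SE 0.23, adjusted p = 0.188). Without replicate 3 they were -0.42 and 0.10, so the direction of Slc7a5 turned with this library. Without replicate 1 Slc3a2 passed (0.98, adjusted p = 0.0254), in a fit that called 145 of all genes higher and 68 lower. With all libraries 25 were called higher and 16 lower. Replicate 3 was the highest of 27 libraries for Atf4, the factor of the amino acid response (554 CPM, at most 511 elsewhere). It was also the highest for Slc38a7, a lysosomal glutamine carrier (50.4 CPM, at most 27.7 elsewhere). It had rank 3 for the asparagine synthetase gene Asns and for Shmt2, and ranks 5 and 6 for the serine synthesis genes Phgdh and Psat1. For the stress response gene Sesn2 it had rank 20. Among the other carriers followed here its rank ran from 3 (Slc1a5) to 23 (Slc20a2). How many of all genes were highest in this library was not counted. Among further amino acid carriers it had rank 3 for Slc7a11, 4 for Slc6a9, 21 for Slc1a4 and 27 for Slc7a3, the last at only 0.240 CPM. The ratio of Slc7a5 to Slc3a2 reads was 1.04 there and 0.683 and 0.678 in the other 2 libraries. Across groups the median ratio ran from 0.683 in the STAT5B knockdown and 0.689 in deprived wild type to 1.00 with the no-target hairpin and 1.11 in the HDAC3 knockdown. In the public series the sample record of STAT5B knockdown replicate 3 is numbered apart from all others, and the labels give no reason. What set this library apart was not tested.

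**Figure D4:**
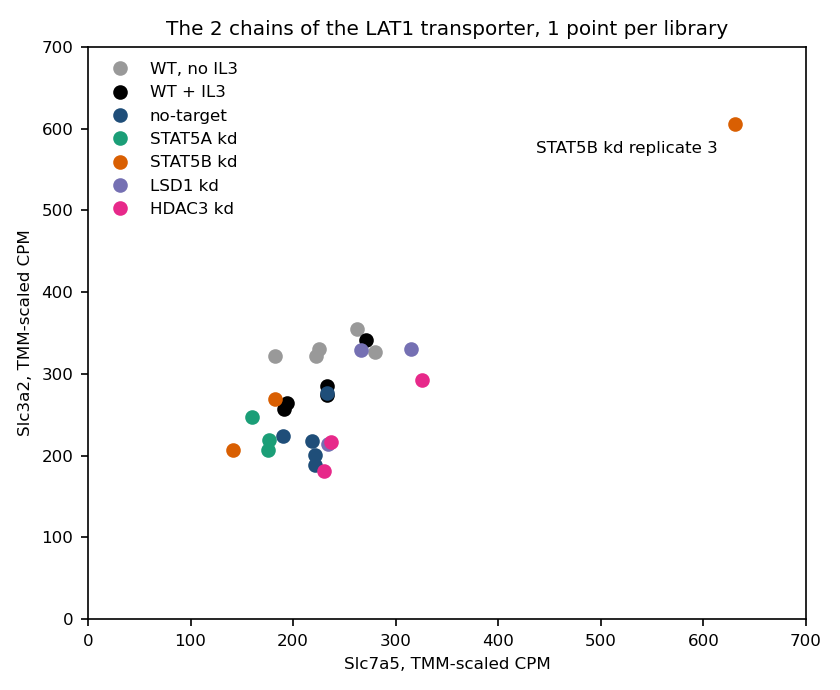
Slc3a2 against Slc7a5 level (TMM-scaled CPM on both axes), 1 point per library, coloured by group. STAT5B knockdown replicate 3 lies at 630 and 606 CPM, and the other 26 libraries lie at or below 326 and 355 CPM.

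Set directly against each other, the STAT5A and STAT5B knockdowns gave no called carrier by edgeR or by DESeq2 (0.0248% of all genes were called). An unadjusted p under 0.05 was found for 409 of the 12073 genes and for 2 of 10 carriers. Those were the LAT1 chains, Slc7a5 (-0.90, SE 0.33) and Slc3a2 (-0.68, SE 0.26), each with an adjusted p = 1, and both rest on the STAT5B library above. No carrier was free of overlap between these groups (7.07% of all genes were).

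With LSD1 or HDAC3 lowered, no carrier passed by edgeR or by DESeq2; 0.166% (LSD1) and 0.0248% (HDAC3) of all genes did. Unadjusted p was under 0.05 for 1 and for 2 of the 10, beside 810 and 687 of the 12073 genes. Slc2a1 was the carrier with the smallest p in the LSD1 knockdown, at 73.6, 75.9 and 55.1 CPM against 88.5 to 133 CPM with the no-target hairpin. All 3 libraries lay below every control, while stimulated wild-type cells (49.6 to 96.6 CPM) covered the same range. The log2 fold change was -0.77 (SE 0.25, adjusted p = 0.376), and over the 17 alternatives it lay between -0.98 and -0.63 with adjusted p from 0.0907 to 1. In the HDAC3 knockdown Slc2a1 stood at 86.2, 82.2 and 74.0 CPM, again below every control (-0.53, SE 0.25, adjusted p = 0.861). No overlap with the controls was found in 2.80% of all genes in the LSD1 and 2.45% in the HDAC3 knockdown.

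Slc20a1 was highest in the HDAC3 knockdown, at 204, 224 and 187 CPM, above every no-target library (0.40, SE 0.20, adjusted p = 0.861). Its value was 0.22 within the common class, which leaves 1 of the 3 HDAC3 libraries. With LSD1 lowered it stood at 189.8, 203 and 125 CPM (0.15, SE 0.20, adjusted p = 0.9995). Slc7a5 stood at 234, 315 and 266 CPM with LSD1 lowered, just above the highest control at 233 (0.33, SE 0.29, adjusted p = 0.9995). Slc7a1 stood at 145, 88.2 and 78.9 CPM with HDAC3 lowered and at 79.2, 50.9 and 40.9 CPM with LSD1 lowered (0.60, SE 0.27, adjusted p = 0.861, and -0.28, SE 0.28, adjusted p = 0.9995). In both groups the highest Slc7a1 level came from replicate 1, a library with many reads outside genes. Slc2a3 spread widely, at 115, 281 and 333 CPM with HDAC3 lowered and at 216, 205 and 91.7 CPM with LSD1 lowered. Its values were 0.39 (SE 0.34) and -0.12 (SE 0.34), smaller than the spread between libraries. Over the 10 carriers the median was -0.13 with LSD1 lowered (3 of 10 positive) and 0.18 with HDAC3 lowered (8 of 10 positive). Over all genes the medians were -0.02 and 0.

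The difference between the LSD1 and HDAC3 knockdowns was tested directly. It passed for no carrier by edgeR or by DESeq2, while 0.820% of all genes were called. An unadjusted p under 0.05 was found for 1719 of the 12073 genes and for 2 of 10 carriers. Slc7a1 was lower with LSD1 lowered than with HDAC3 lowered (log2 fold change -0.87, SE 0.31, adjusted p = 0.189), a value that did not pass. Slc16a1 stood at 99.9, 98.2 and 105 CPM with LSD1 lowered and at 150.3, 117 and 122 CPM with HDAC3 lowered, with no overlap (10.5% of all genes; -0.36, SE 0.16, adjusted p = 0.309).

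Library class moved with some carriers. The 5 hairpin libraries with many reads outside genes came from the HDAC3, LSD1 and no-target groups. The 2 with few multi-mapped reads came from the STAT5 knockdowns, so class and hairpin are partly tied. Among the 17 hairpin libraries Slc7a1 stood at 79.2 to 145 CPM in the 5 and at 40.9 to 78.9 CPM in the 10 of the common class. In the 2 with few multi-mapped reads it stood at 23.6 to 28.1 CPM. Slc38a2 stood at 222 to 329, 129 to 257 and 223 to 244 CPM, Slc20a1 at 145 to 224, 125 to 203 and 88.2 to 92.1 CPM, and Slc3a2 at 182 to 218, 201 to 606 and 247 to 269 CPM. The HDAC3 value of Slc38a2 was 0.15 with all libraries and -0.42 without the 5, and its LSD1 against HDAC3 value -0.46 and 0.20, so the sign turned. Within the common class further knockdown values moved by more than 1.5 times, among them those of Slc20a1 (STAT5A -0.18, STAT5B -0.10, LSD1 0.03), Slc2a1 (STAT5A -0.40), Slc16a1 (STAT5A -0.27), Slc7a5 (STAT5B 0.85) and Slc2a3 (LSD1 -0.31, HDAC3 0.87). The part of library class in the hairpin values was not tested further. The wild-type groups held none of the 5 libraries, and within the common class (4 against 4) Slc2a1 rose by 1.39 on the log2 scale (adjusted p = 6.28e-05).

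Other carriers were counted as lists, 89 genes in all, of which 55 were tested. With IL3 1 of the 55 rose and 0 fell. That was Slc16a8, a lactate carrier near the limit of detection, from 0.581 ± 0.182 to 1.79 ± 0.525 CPM (log2 fold change 1.60, SE 0.45, adjusted p = 0.0441). It did not pass in 9 of 19 alternatives, 8 of which left out 1 library. By list, 0 of 5 glucose and fructose carriers, 0 of 7 phosphate carriers, 0 of 22 amino acid carriers, 1 of 10 monocarboxylate carriers and chaperones and 0 of 11 carriers of iron, nucleosides, zinc or folate changed. Median log2 fold changes were -0.24, 0.11, -0.01, -0.10 and -0.06. With the replicate block 6 of the 55 rose and 6 fell, shares near the 12.6% and 8.66% of all genes called higher and lower in that fit. Those that rose were Slc16a8 (1.55), Slc16a6 (0.60), the cystine importer Slc7a11 (0.40), the transferrin receptor gene Tfrc (0.34), Slc37a1 (0.34) and Slc25a44 (0.27). Those that fell were Slc43a2 (-0.41), the intracellular glucose carrier Slc2a8 (-0.38), the sugar exporter Slc50a1 (-0.38), Slc38a7 (-0.37), the glucose 6-phosphate carrier Slc37a4 (-0.35) and the glycine carrier Slc6a9 (-0.34). Xpr1, the exporter of phosphate and so the counterpart of the PiT carriers, stood at 55.2 ± 3.28 and 60.7 ± 5.00 CPM (0.14, SE 0.20, adjusted p = 0.829). In the hairpin comparisons 1 of 55 passed in the STAT5B knockdown, Slc38a7 (1.49, SE 0.28, adjusted p = 0.0224). Without replicate 3 its value was 0.89 (adjusted p = 0.371), and it did not pass in 10 of 17 alternatives. In the other 6 comparisons 0 of 55 passed.

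Genes that act on these carriers were counted beside them. Of 13 regulators tested, 2 rose with IL3, Myc (log2 fold change 3.49) and Atf4 (from 161 ± 24.3 to 390 ± 25.6 CPM; 1.28, SE 0.20, adjusted p = 0.000220), and 0 fell. With the block, where 12.6% of all genes were called higher and 8.66% lower, 5 of the 13 rose, with Hif1a (0.56), Rheb (0.54) and Foxo3 (0.53) in addition. Myc rose in 5 of 5 pairs by 7.92-fold or more. Txnip, whose protein draws glucose carriers from the cell surface, was the most uneven of them, at 179 to 329 CPM in deprived and 53.8 to 654 CPM in stimulated wild-type cells. It was lower in 4 of 5 pairs and 1.99-fold higher in replicate 1 (log2 fold change -0.17, SE 0.67, adjusted p = 0.945). Replicate 1 had the smallest Slc20a1, Slc2a3, Slc7a1 and Myc rises, and of the genes named below the smallest Rraga rise and Ddit4 fall. Slc38a2 rose least in replicate 4 and Atf4 in replicate 3. A link of these differences with Txnip was not tested. The smallest Slc2a1 rise was in replicate 2 (1.47-fold), where Txnip was at 0.412 of its deprived level. Arrdc4, a relative of Txnip, was listed at 0 in both wild-type groups. Of 21 genes of amino acid sensing towards mTORC1, Rraga, a GTPase of the lysosomal sensor, rose (0.48, SE 0.11, adjusted p = 0.0143) and Ddit4, an inhibitor of mTORC1, fell from 85.6 ± 18.6 to 26.3 ± 11.6 CPM (-1.70, SE 0.34, adjusted p = 0.00315). With the block 2 of these 21 rose and 3 fell, against the same shares of all genes: Gatsl3 (an older symbol of the arginine sensor gene Castor1) rose by 1.37 (adjusted p = 0.00136), and Wdr24 (-0.38) and Nprl2 (-0.36), subunits of the GATOR complexes, fell beside Ddit4. Of 16 genes for the first steps of use of the imported nutrients 0 passed, and with the block 3 rose (12.6% of all genes did), among them Hk2 (0.54), which traps glucose in the cell, and Odc1 (0.35), and Pfkl fell (-0.37). Bsg, the chaperone that MCT1 needs to reach the membrane, stood at 492 ± 70.6 and 431 ± 26.2 CPM (-0.19, SE 0.19, adjusted p = 0.705). The other MCT1 chaperone, Emb, stood at 0 to 0.0776 CPM in the 27 libraries.

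The genes whose level followed each carrier most closely across the 27 libraries were taken by Pearson's r of log2 CPM over all genes tested. These values are a description: the points share depth and library class, and the 7 groups themselves differ. Slc20a1 was followed most closely, by Mdm2 (r = 0.966), Cish (0.960) and Fosl2 (0.955). For Slc2a1 they were Ccdc126 (0.891), Coq10b (0.891) and Smndc1 (0.878), and for Slc2a3 Stk17b (0.915), F2r (0.902) and Lrp12 (0.888). Slc3a2 gave Tmem55b (0.910), Cebpb (0.898) and Snx8 (0.883), Slc7a5 gave Lag3 (0.804), Patz1 (0.799) and Zdhhc8 (0.736), and Slc7a1 gave Slc35g1 (0.935) and Fam168a (0.914). Further close genes were Snx30 for Slc38a2 (0.870), Wdr36 for Slc16a1 (0.851) and Vps33b for Slc1a5 (0.741).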

How the data were processed

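PolyA RNA of 27 Ba/F3 libraries was sequenced by the authors, and the deposited files hold whole-number read counts per gene symbol, 1 file per library. Per the submitters' processing notes the tools were Trimmomatic 0.30, TopHat2 2.0.10, HTSeq 0.5.4p5 and DESeq2 1.2, with the mm10 build. Their order, the counting mode, strand handling and the gene annotation are not given in the sources used here, so reads of overlapping genes cannot be told apart. The 5 summary rows per file (reads outside genes, multi-mapped and the like) entered neither library sizes nor tests and served only to describe library classes.

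All 27 libraries entered 1 edgeR 4.0.16 quasi-likelihood fit (R 4.3.3, robust option, TMM factors, filterByExpr, a mean per group, no covariate), and SE is the log2 fold change divided by the square root of F. Depth was 5.48 to 33.8 M counted reads, and counts cover counting error only, since PCR copies were not told apart. The fit was tested on simulated data. Of 2-fold changes it recovered 45% (LSD1) to 62% (HDAC3) in the knockdowns, 65% with IL3 and 33% for STAT5A against STAT5B. A gene that did not pass is thus not shown to be unchanged. Libraries of equal replicate number correlated in wild type in all 5 pairs (r 0.375 to 0.716, deviations from group means), and in no other comparison did all pairs exceed 0.1. The replicate block was fitted on the libraries of the 2 compared groups only. Log2 CPM used a prior count of 2. Gene positions and exon lengths came from GENCODE vM21, promoters from RefSeq. Older symbols were matched through RefSeq synonyms, so 145 of 145 listed genes were found and 105 tested. Alternatives were RLE factors, no low-count filter, DESeq2 1.42.0, a threshold of 0.01, only the 2 groups fitted, a term for library class, leaving out the 5 libraries or single replicates, the replicate block, and, chosen after seeing the data, the common class alone.

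The 10 carriers and the 8 gene lists were chosen with earlier results of these data known. Named were all 10 carriers, list members called in a comparison, regulators and chaperones of the carriers, and genes among the 3 closest to each carrier by r (some genes under these rules are not reported here); genes of the replicate 3 comparison and those called with the block were named after their values were seen.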

Additional observations from a re-analysis of the deposited data

Results flagged for a closer look

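In 6 of the 30 combinations of a carrier and a group of 5 libraries, 1 library lay far from the other 4 by Dixon's criterion, which chance meets in about 1 in 20. They were deprived wild-type replicate 2 for Slc2a1 (65.8 CPM, highest), stimulated wild-type replicate 1 for Slc20a1 (86.7 CPM, lowest), no-target replicate 1 for Slc20a2 (40.2 CPM, highest), deprived replicate 5 for Slc3a2 (355 CPM, highest), deprived replicate 1 for Slc7a1 (36.8 CPM, highest) and stimulated replicate 2 for Slc7a1 (36.3 CPM, lowest).

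Of the listed genes, 2 differed between the LSD1 and HDAC3 knockdowns by edgeR's test of the difference itself. Hk3, a hexokinase gene, stood at 14.6 ± 5.64 CPM with LSD1 lowered and 2.14 ± 1.31 CPM with HDAC3 lowered (SD, n = 3 each; log2 difference 2.77, adjusted p = 0.0113), and did not pass in 6 of 15 alternatives. Nprl3, a subunit of the GATOR1 inhibitor of mTORC1, stood at 40.3 ± 12.7 and 24.6 ± 2.78 CPM (log2 difference 0.71, adjusted p = 0.0429), and did not pass in 11 of 15.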

How the results depend on the processing

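Slc20a1 (log2 fold change 2.33 to 2.51) and Slc2a1 (1.04 to 1.49) passed with IL3 under all 19 alternatives. With the replicate block 5 carriers were called in the IL3 comparison in place of 2, and the block called 0 in each hairpin comparison, where the numbers did not pair the libraries. With only the 2 wild-type groups fitted Slc7a1 passed as well (0.46, adjusted p = 0.0172), in a fit that called 812 of all genes higher and 360 lower. In the STAT5B knockdown the number of carriers called ranged from 0 to 1 when 1 library was left out. In all, 1355 values of single carriers kept their direction or stayed short of the threshold and 5 passed it newly. The count of all genes called depended on the setting far more: 252 to 2569 with IL3, 0 to 32 for STAT5A, 0 to 213 for STAT5B, 0 to 64 for LSD1, 0 to 12 for HDAC3, 0 to 122 for the no-target hairpin, 0 to 13 for STAT5A against STAT5B and 0 to 409 for LSD1 against HDAC3. Fitting only the 2 groups lost the call of the targeted gene itself for STAT5A, LSD1 and HDAC3 (adjusted p = 0.254, 0.748 and 0.978), at log2 fold changes of -1.48, -0.91 and -1.16, and so did the block in all 4 knockdowns. Kdm1a also lost its call when the 5 libraries rich in reads outside genes were left out (-0.90, adjusted p = 0.0574), and within the common class Stat5a (-1.27, adjusted p = 0.0835) and Kdm1a (-0.88, adjusted p = 0.0907) did. At a threshold of 0.01, and without HDAC3 knockdown replicate 2 or replicate 3, 0 genes were called in the HDAC3 comparison, so Hdac3 lost its call there too. Within the common class, which leaves 1 HDAC3 library, its log2 fold change was -1.70. The causes were not tested. Each carrier had 133 reads or more in every library, and its SE in the knockdowns was 0.14 to 0.35 on the log2 scale.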
